A study of Mus musculus with 37 samples.

Results

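The translation initiation and elongation factors were taken as the protein-coding genes whose mouse symbol starts with Eif and a digit from 1 to 6, or with Eef and 1 or 2. Of 54752 genes, 21921 of them protein-coding, 68 met this rule: 55 Eif genes and 13 Eef genes, with 418 annotated transcripts. Initiation factors bring the small ribosomal subunit and the initiator tRNA to the capped end of an mRNA and select the start codon. eIF2 carries the initiator tRNA, eIF2B reloads eIF2 with GTP, eIF3 is the large scaffold on the small subunit, and eIF4F binds the cap. Elongation factor eEF1 then delivers aminoacyl-tRNAs and eEF2 moves the ribosome along. In the fully grown oocyte transcription is shut down, and maturation runs on stored mRNAs whose translation is turned on and off in the cytoplasm; Eif4e1b, a cap-binding form made in oocytes, is among the members.

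Oocytes of C57BL/6 females aged 6 to 8 weeks were sequenced one at a time by Smart-seq2, to follow the transcriptome from the germinal vesicle (GV) stage through metaphase I (MI) to metaphase II (MII). Batch A held 6 GV and 6 MII oocytes, and batch B held 10 GV and 15 MI oocytes, so MI and MII could each be compared only with the GV oocytes of their own batch. The females were primed with PMSG, and hCG came 48 h after it. The oviducts supplied ovulated MII oocytes, with hCG given 15 h before. The source of GV oocytes was the ovary, at 48 h of PMSG priming. MI oocytes were GV oocytes stripped of cumulus cells and cultured in M16 medium for 8 h. Zonae and polar bodies were taken off before lysis. MII oocytes had thus matured in the animal and MI oocytes in culture, and stage and route of maturation cannot be told apart. Sample labels name no animals, so the p-values measure the spread between oocytes, some of which may share a mother.

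The summed RSEM expected counts of an oocyte ranged from 7509812 to 12648571 in GV oocytes of batch A, from 9930422 to 13988336 in MII oocytes, from 7184193 to 17724506 in GV oocytes of batch B and from 2709247 to 19390137 in MI oocytes. Members took 46688 to 89115 counts per oocyte in batch A GV, 56668 to 71575 in MII, 33613 to 106887 in batch B GV and 10341 to 116135 in MI. Abundance is given as CPM, the counts of a gene in each 1000000 counts, with TMM-scaled library sizes, computed within each batch. Because the reads carried no molecular identifiers, the detection limits given here cover counting error only. The SDs, SEs and p-values measure the spread between oocytes. A member with 0 counts in a whole group can be bounded at 3 counts of the group's total, which is 0.0489 CPM for GV and 0.0444 CPM for MII in batch A, and 0.0241 CPM for GV and 0.0161 CPM for MI in batch B.

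Some libraries stood apart. MII oocyte 1 had 29518 detected genes while the remaining MII oocytes had 19273 to 22244, and its summed CPM of 9 blood and immune markers was 17.8, the highest of all 37. MI oocyte 15 had the lowest depth, 2709247 counts, and 12505 genes detected. HTSeq totals were below RSEM totals in several batch B libraries, and by the widest margins in MI oocytes 4, 8 and 9 (8658057, 12290988 and 7126122 HTSeq counts, 13358034, 19390137 and 13460596 RSEM counts). All 15 oocyte markers were detected in each group, with a median summed CPM of 17378 in batch A GV, 12402 in MII, 6897 in batch B GV and 5939 in MI. The 16 cumulus and granulosa markers summed to 8.93 to 47.5 CPM per oocyte, highest in GV oocyte 10 of batch B, with a median of 29.7 in GV and 21.2 in MII of batch A and of 21.6 in GV and 16.2 in MI of batch B. Several of them had lower medians after GV: Ccnd2 (2.34 CPM in GV and 0 in MII, 3.10 in GV and 0.0432 in MI), Inha (0.993 and 0 in batch A), Cyp11a1 (2.81 and 0.525 in batch A) and Gja1 (2.10 and 0.166 in batch B). Others differed between the batches, with higher medians at MI and lower medians at MII: Has2 (0.0908 in GV and 1.41 in MI, 0.868 in GV and 0.460 in MII) and Star (0 in GV and 0.469 in MI, 0.946 in GV and 0.527 in MII). Hsd17b1 (0 in GV and 0.187 in MII) and Ptgs2 (0.411 and 0.418) had higher medians at MII. Cyp19a1 was the most abundant of the granulosa markers in every group. Its median was higher after GV in both batches (16.7 in GV and 17.98 in MII, 14.3 in GV and 14.7 in MI). Amhr2 and Ptx3 were at 0 in all GV oocytes of batch A, and Amh, Amhr2, Foxl2 and Ptx3 were at 0 throughout batch B. Blood and immune markers summed to 0.452 to 17.8 CPM, with Lyz2, Adgre1 and Cd74 at 0 in every oocyte outside the MII group. The bearing of these marker differences on the members was not tested.

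Between GV and MII in batch A, 61 of the 68 members had enough counts to be tested. Of these, 14 were lower and 4 were higher at MII by edgeR's quasi-likelihood test at a Benjamini-Hochberg adjusted p under 0.05, beside 11.5% lower and 9.06% higher among all 12929 genes tested. A larger share of the members than of all genes was lower, while for higher calls the order of the 2 shares changed with the settings. With a fold change over 2 as well, 5 members were lower and 0 higher, beside 6.32% and 2.15% of all genes. All GV oocytes were separated from all MII oocytes for 9 members lower and 3 members higher at MII, beside 5.71% and 4.08% of all genes. The median log2 fold change was −0.13 over the members and 0.01 over all genes. Fold changes were below 0 for 36 of the 61 members and for 49.0% of all genes, and 29 members had an unadjusted p under 0.05, beside 4441 of the 12929 genes. The median sum of granulosa markers was also lower at MII, 21.2 CPM and 29.7 at GV. The 47 tested members outside eIF3 had 7 lower, 4 higher and a median of −0.04. The members outside eIF3 with enough HTSeq counts for a test were not quite the same set. They included Eif1a, which was 1 of the lower calls. These had 4 lower, 6 higher and a median of 0.01, beside 8.79% and 6.70% of all genes. With spike-in factors the 47 had 26 lower, 0 higher and a median of −0.75, beside 42.2%, 1.11% and −0.72 for all genes.

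These changes are relative to the rest of the library. Only batch A had enough spike-in counts to use, and with size factors from them the median change of all genes from GV to MII was −0.72, with 42.2% of genes lower and 1.11% higher. On that scale 39 members were lower and 0 higher, the median of the members was −0.88, and the 4 members that passed as higher relative to the library had fold changes below 0 and did not pass. With ribosomal RNA genes left out of the library size, the all-gene median was −0.12, and 20 members were lower and 3 higher, beside 14.9% and 4.70% of all genes. For each spike-in count, GV oocytes held 97.6 ± 25.9 counts of genes other than ribosomal RNA, and MII oocytes held 64.0 ± 5.86 (SD, n = 6 each). Without GV oocyte 4 the members higher at MII numbered 8, beside 7.36% of all genes, and without MII oocyte 5 they numbered 7, beside 7.98%. With HTSeq counts 10 members were lower and 6 higher, beside 8.79% and 6.70%. In a fit of the 37 oocytes together that took batch as a covariate, 7 members were lower and 4 higher, beside 4.05% and 4.13% of all genes in that fit.

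**Figure D1:**
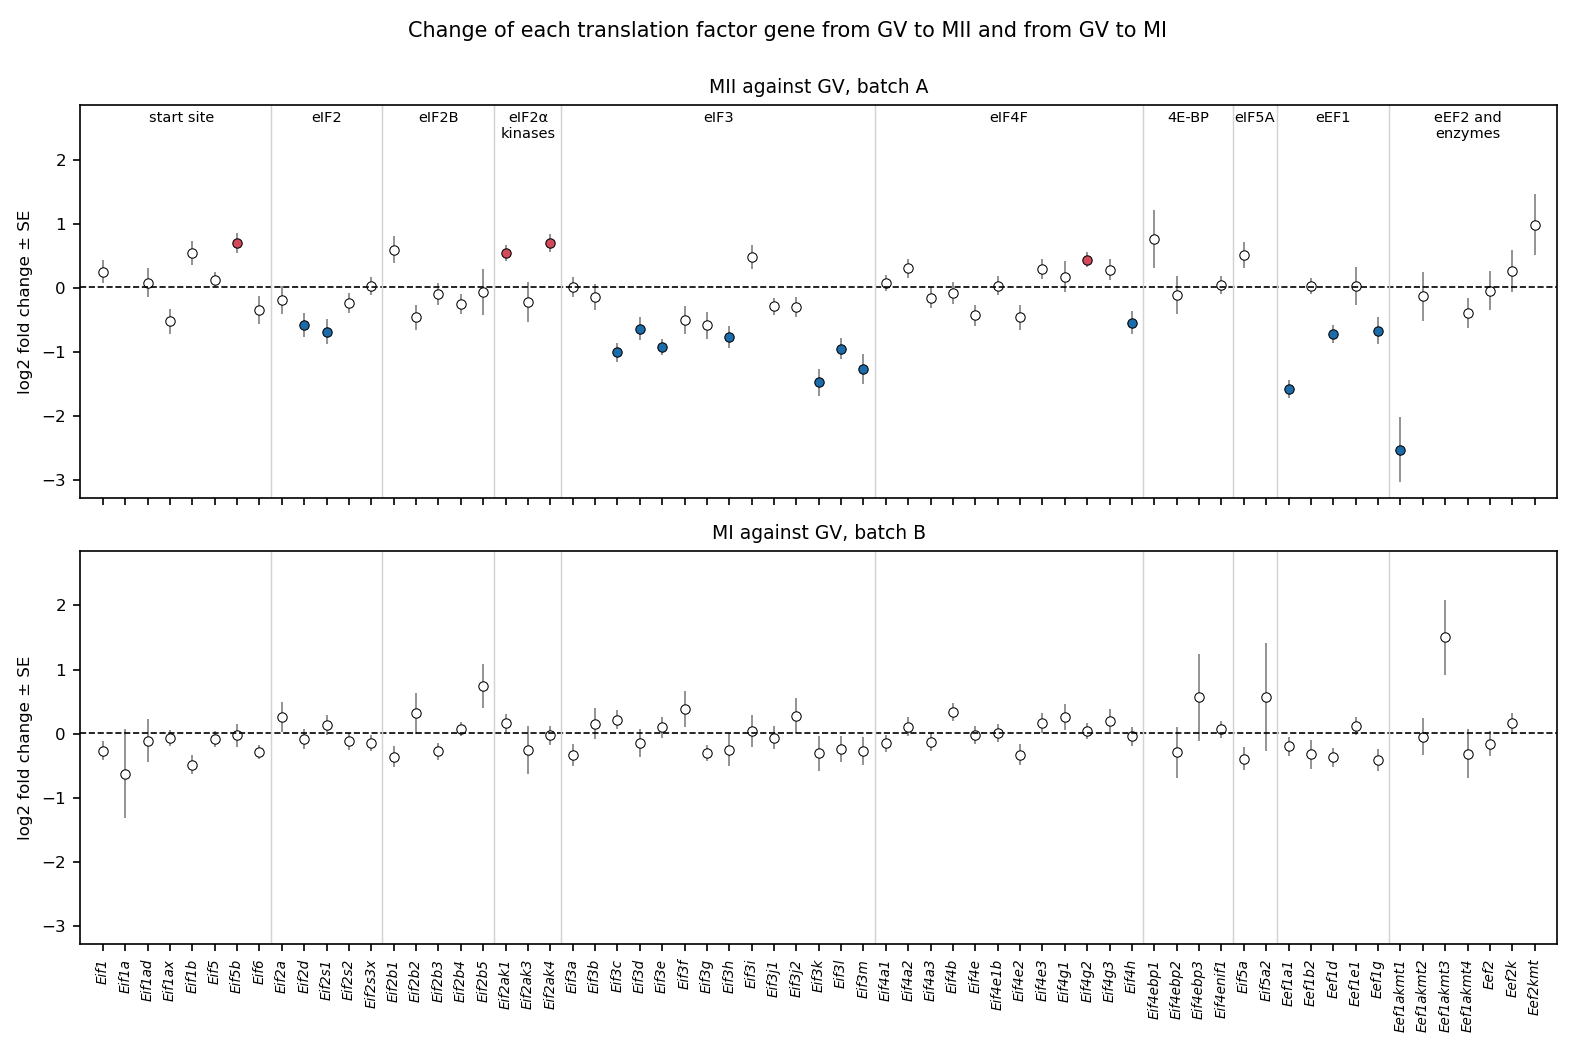
Log2 fold change of each tested member, with its standard error, from GV to MII in batch A (top) and from GV to MI in batch B (bottom); filled points passed the test (blue lower, red higher) and open points did not. In batch A 14 members lie lower and 4 higher as passing points, against 0 in batch B, and with spike-in scaling, where all genes shift by a median of −0.72, the 4 higher members fall below 0.

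The remaining 7 members had too few counts in batch A. Eef1a2, the muscle and nerve form of eEF1A, had 0 counts in every GV oocyte and throughout batch B, and up to 0.207 CPM at MII. Eif2s3y, the Y-linked eIF2 gamma gene, had 0 counts in all of batch A, and in batch B it was above 0 in GV oocytes 1, 8 and 9 (up to 0.585 CPM) and MI oocytes 7, 8 and 15 (up to 0.549 CPM). All oocytes came from females, which carry no Y chromosome. The source of these few counts was not tested. Eif1a lay at 0.305 to 11.3 CPM in GV oocytes and 0.212 to 1.92 CPM in MII oocytes, and with HTSeq counts, where it had enough for a test, it was lower at MII (log2 fold change −2.77, adjusted p = 0.0214). Eif2ak2, the kinase activated by double-stranded RNA, reached 11.4 CPM in MII oocyte 1, the library with the most genes detected, and stayed at 0.177 to 1.73 CPM in the other MII oocytes. The others were Eef1akmt3, Eif4ebp3 and Eif5a2.

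To set members beside each other, transcript counts were divided by transcript length and scaled so that the protein-coding genes of an oocyte summed to 1000000. All members together made up 1.17% ± 0.0771 of this per-length level in batch A GV, 1.11% ± 0.0253 in MII, 1.24% ± 0.0997 in batch B GV and 1.20% ± 0.0838 in MI (SD, n = 6, 6, 10 and 15). The total share thus moved little between stages. At GV in batch A the highest per-length levels were those of Eef1a1 (823 ± 119.7), Eif1 (717 ± 204), Eif1b (676 ± 145), Eif4a1 (535 ± 101) and Eif6 (502 ± 168). The SDs of neighbours in this order overlapped. Eif4e1b ranked 21 of 68 with 247 ± 66.9, a little below Eif4e (285 ± 74.1), and the cap-binding forms Eif4e3 (196 ± 40.6) and Eif4e2 (46.1 ± 6.01) were lower. At MII the order was led by Eif1b (987 ± 189.9) and Eif1 (798 ± 47.5), and Eef1a1 stood at 282 ± 26.6. In batch B the highest levels were those of Eif5 (1215 ± 329.5 in GV, 1258 ± 326 in MI) and Eif4a1 (1193 ± 409 in GV, 1104 ± 325 in MI). The batches were not compared by a test.

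The eIF3 complex covers the small subunit and keeps it ready for the mRNA. All 14 of its genes were tested between GV and MII, 7 fell and 0 rose, with 3 falling more than 2-fold, beside 11.5% lower, 9.06% higher and 6.32% lower by more than 2-fold among all genes. Fold changes were below 0 for 12 of 14, their median was −0.61, and the range ran from −1.47 to 0.48. The summed per-length level of eIF3 was 1765 ± 203 in batch A GV and 1144 ± 127 in MII, against 1504 ± 145 in batch B GV and 1400 ± 159 in MI. With spike-in factors 13 of the 14 were lower and their median was −1.30, beside 42.2% of all genes and −0.72, and with HTSeq counts 6 were lower, beside 8.79% of all genes.

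Eif3e (ENSMUSG00000022336, chr15:43250058-43282719), a subunit of eIF3, had CPM of 61.2, 57.8, 51.7, 53.4, 55.4 and 48.7 in GV oocytes 1 to 6 and 28.1, 29.3, 26.1, 25.5, 30.4 and 34.5 in MII oocytes 1 to 6. No MII oocyte reached the lowest GV oocyte, and the values within each stage lay close together. The fall (log2 fold change −0.91, SE 0.13, adjusted p = 0.000166) passed under all 20 alternative settings. In batch B its CPM ran from 25.2 to 68.4 (median 49.0) in GV oocytes and from 27.5 to 80.2 (median 53.9) in MI oocytes, with all but 2 MI oocytes inside the GV range (log2 fold change 0.10, SE 0.16, adjusted p = 0.884). Eif3k (ENSMUSG00000053565, chr7:28971372-28981864), a small subunit that pairs with Eif3l, had CPM of 48.7, 54.4, 64.7, 73.3, 99.1 and 50.7 in GV oocytes 1 to 6 and 15.7, 29.7, 22.8, 20.7, 20.5 and 31.4 in MII oocytes 1 to 6. GV oocyte 5 was the highest and MII oocyte 1 the lowest, with no overlap between stages. It fell more than any other eIF3 gene (log2 fold change −1.47, SE 0.21, adjusted p = 0.000177). In batch B the CPM ran from 12.7 to 52.4 (median 24.5) in GV oocytes and from 4.35 to 40.3 (median 19.7) in MI oocytes (log2 fold change −0.31, SE 0.28, adjusted p = 0.748). Eif3c (ENSMUSG00000030738, chr7:126546455-126566411), part of the core that contacts the start-site factors, had CPM of 72.6, 60.7, 93.1, 72.9, 72.0 and 81.2 in GV oocytes 1 to 6 and 37.5, 41.7, 27.3, 45.0, 40.1 and 34.3 in MII oocytes 1 to 6. Again the stages were apart, with MII oocyte 3 lowest and GV oocyte 3 highest (log2 fold change −1.001, SE 0.15, adjusted p = 0.000289). In batch B the CPM of Eif3c ran from 63.9 to 103 (median 68.8) in GV oocytes and from 49.9 to 179 (median 87.4) in MI oocytes, and the highest value belonged to MI oocyte 15, the shallowest library (log2 fold change 0.22, SE 0.15, adjusted p = 0.628).

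Eif3l (ENSMUSG00000033047, chr15:79075179-79094405), the partner of Eif3k, had CPM of 52.8, 45.7, 61.0, 60.8, 71.1 and 67.4 in GV oocytes 1 to 6 and 36.0, 37.2, 25.0, 31.6, 21.9 and 34.4 in MII oocytes 1 to 6. Every MII oocyte was below every GV oocyte, the lowest being MII oocyte 5 (log2 fold change −0.95, SE 0.16, adjusted p = 0.001). Batch B values ran from 14.9 to 37.8 (median 26.7) in GV oocytes and from 7.88 to 39.9 (median 22.6) in MI oocytes (log2 fold change −0.23, SE 0.20, adjusted p = 0.736). Eif3m (ENSMUSG00000027170, chr2:104999656-105017080), another subunit, had CPM of 71.2, 113, 87.0, 128, 128 and 65.8 in GV oocytes 1 to 6 and 31.4, 52.5, 59.9, 26.2, 29.0 and 48.8 in MII oocytes 1 to 6. Its GV oocytes split into lower values in oocytes 1, 3 and 6 and higher values in 2, 4 and 5, all above the MII oocytes (log2 fold change −1.26, SE 0.23, adjusted p = 0.00173). Batch B CPM ran from 20.9 to 51.7 (median 36.7) in GV oocytes and from 7.88 to 55.4 (median 28.6) in MI oocytes (log2 fold change −0.27, SE 0.22, adjusted p = 0.704). Eif3h (ENSMUSG00000022312, chr15:51786558-51865523), a subunit with a fold shared by proteasome lid proteins, had CPM of 38.8, 37.6, 53.2, 68.3, 58.4 and 51.4 in GV oocytes 1 to 6 and 26.0, 34.2, 34.4, 30.1, 22.8 and 33.8 in MII oocytes 1 to 6. The gap between stages was narrow, from 34.4 in MII oocyte 3 to 37.6 in GV oocyte 2 (log2 fold change −0.76, SE 0.17, adjusted p = 0.0057). This call was lost in the fit with batch as a covariate (adjusted p = 0.209, the highest of 20 alternatives, the lowest being 6.10e-05). Batch B CPM ran from 17.4 to 81.2 (median 21.4) in GV oocytes and from 11.0 to 59.8 (median 23.0) in MI oocytes, with GV oocyte 4 far above the other GV oocytes (log2 fold change −0.25, SE 0.26, adjusted p = 0.792).

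Eif3d (ENSMUSG00000016554, chr15:77958998-77970813), which can bind the cap of some mRNAs itself, had CPM of 29.4, 31.7, 60.6, 47.8, 38.7 and 54.7 in GV oocytes 1 to 6 and 25.5, 28.3, 25.8, 25.8, 29.4 and 34.9 in MII oocytes 1 to 6. GV oocytes 1 and 2 lay inside the MII range, and the other GV oocytes were above it. The fall was small (log2 fold change −0.63, SE 0.18, adjusted p = 0.0237). It no longer passed without GV oocyte 3 (adjusted p = 0.0599), GV oocyte 6 (0.0518), MII oocyte 1 (0.0526) or MII oocyte 4 (0.0526), with HTSeq counts (0.112) or with batch as a covariate (0.237), and over all 20 alternatives p ran from 0.000264 to 0.237. Batch B CPM ran from 12.1 to 58.9 (median 26.7) in GV oocytes and from 14.3 to 49.1 (median 25.1) in MI oocytes (log2 fold change −0.15, SE 0.22, adjusted p = 0.871). The eIF3 genes that did not pass were Eif3g (log2 fold change −0.58), Eif3f (−0.50), Eif3j2 (−0.30), Eif3j1 (−0.28), Eif3b (−0.14), Eif3a, the largest subunit (0.01), and Eif3i (0.48).

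Elongation factor 1 had 5 tested genes, of which 3 fell from GV to MII and 0 rose, beside 11.5% and 9.06% of all genes, with a median log2 fold change of −0.66. With HTSeq counts 2 were lower, beside 8.79% of all genes, and with spike-in factors 4, beside 42.2%. Its summed per-length level was 1601 ± 124 in batch A GV and 843.9 ± 45.7 in MII, against 1147 ± 181 in batch B GV and 1006 ± 209 in MI. Eef1a1 (ENSMUSG00000037742, chr9:78478449-78489151), the GTPase that brings aminoacyl-tRNA to the ribosome, had CPM of 382, 339, 397, 461, 529 and 406 in GV oocytes 1 to 6 and 115, 140.4, 147, 153, 133 and 155 in MII oocytes 1 to 6. The lowest GV oocyte was more than 2-fold above the highest MII oocyte, and neither group held a stray value. Of all members it had the smallest adjusted p (log2 fold change −1.57, SE 0.13, adjusted p = 3.63e-06), and it passed under all 20 alternatives. Its CPM in batch B ran from 105 to 234 (median 151) in GV oocytes and from 65.4 to 196 (median 137) in MI oocytes, with wide overlap (log2 fold change −0.20, SE 0.15, adjusted p = 0.681). Eef1d (ENSMUSG00000055762, chr15:75894205-75909556), a subunit of the exchange factor that reloads eEF1A with GTP, had CPM of 118, 97.4, 151, 146, 107 and 134 in GV oocytes 1 to 6 and 83.5, 82.4, 83.1, 63.9, 67.0 and 78.8 in MII oocytes 1 to 6. MII oocytes were all below GV oocytes, by the least between MII oocyte 1 and GV oocyte 2 (log2 fold change −0.72, SE 0.14, adjusted p = 0.00235). Batch B CPM of Eef1d ran from 32.7 to 83.8 (median 61.3) in GV oocytes and from 25.9 to 68.7 (median 46.1) in MI oocytes (log2 fold change −0.36, SE 0.15, adjusted p = 0.328).

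Eef1g (ENSMUSG00000071644, chr19:8967041-8978479), another exchange-factor subunit and named here after its values were seen, had CPM of 15.9, 27.9, 15.4, 17.8, 26.3 and 17.6 in GV oocytes 1 to 6 and 14.5, 11.7, 16.8, 13.6, 10.8 and 9.13 in MII oocytes 1 to 6. MII oocyte 3 overlapped GV oocytes 1 and 3 (log2 fold change −0.66, SE 0.21, adjusted p = 0.0351). The call was lost on leaving out GV oocyte 2 (adjusted p = 0.0776), GV oocyte 5 (0.0868), MII oocyte 2 (0.0654), MII oocyte 4 (0.0575), MII oocyte 5 (0.069) or MII oocyte 6 (0.0744), and over 20 alternatives p ran from 0.000655 to 0.118. Eef1b2, the exchange subunit proper, had a fold change of 0.03, and Eef1e1, a scaffold of the tRNA synthetase complex, of 0.03; neither passed. Among 9 members known as terminal oligopyrimidine (TOP) mRNAs, whose translation follows growth signals, 5 fell and 0 rose (median −0.66), and among the 52 other tested members 9 fell and 4 rose (median −0.10), beside 11.5% and 9.06% of all genes. With HTSeq counts these numbers were 4 and 0 for TOP members and 6 and 6 for the others, beside 8.79% and 6.70%. The others then included Eif1a, too low for a test with RSEM counts. With spike-in factors the numbers were 8 and 0 for TOP members and 31 and 0 for the others, beside 42.2% and 1.11%.

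eEF2 and the enzymes that modify elongation factors had 6 tested genes, with 1 lower, 0 higher and a median of −0.08, beside 11.5% and 9.06% of all genes. Eef2 (chr10:81176631-81182498), the translocase, did not pass (log2 fold change −0.04, adjusted p = 0.942) and ranged from 35.0 to 93.3 CPM at GV and from 34.0 to 101 CPM at MII. Eef1akmt1 (ENSMUSG00000021951, chr14:57549597-57571612), a lysine methyltransferase of eEF1A, had CPM of 2.10, 2.47, 0.992, 1.67, 4.43 and 1.08 in GV oocytes 1 to 6 and 0.104, 0.588, 0.534, 0.177, 0.347 and 0.425 in MII oocytes 1 to 6. All MII oocytes were below all GV oocytes, at a mean of only 23.0 counts per GV oocyte. Its fall was the largest among the 61 members tested with RSEM counts (log2 fold change −2.52, SE 0.51, adjusted p = 0.00276). With HTSeq counts the fold change was −1.86, and that of Eif1a, too low for a test with RSEM counts, was −2.77. Eef1akmt1 did not pass with batch as a covariate (adjusted p = 0.185, the highest of 20 alternatives, the lowest being 0.000129). It was too low for a test in batch B, where its CPM ran from 0 to 0.758 (median 0.106) in GV oocytes and from 0 to 4.24 (median 0.235) in MI oocytes. Eef2k, the kinase that inhibits eEF2, did not pass as a gene (0.27, adjusted p = 0.594), nor did the methyltransferases Eef2kmt (0.99), Eef1akmt4 (−0.39) and Eef1akmt2 (−0.13).

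Of the start-site factors, which guard the choice of the initiation codon and the joining of the subunits, 7 were tested in batch A, 0 fell and 1 rose, with a median of 0.13, beside 11.5% and 9.06% of all genes. With HTSeq counts 1 was lower and 2 were higher, beside 8.79% and 6.70% of all genes. The lower gene was Eif1a, which was too low for a test with RSEM counts. With spike-in factors 3 were lower, 0 higher and the median −0.60, beside 42.2%, 1.11% and −0.72 for all genes. Eif5b (ENSMUSG00000026083, chr1:37998010-38055579), the GTPase of subunit joining, had CPM of 247, 242, 265, 198, 142 and 257 in GV oocytes 1 to 6 and 359.7, 341, 335, 362, 458 and 341 in MII oocytes 1 to 6. GV oocyte 5 was the lowest and MII oocyte 5 the highest, and the stages did not overlap. Relative to the library Eif5b rose (log2 fold change 0.70, SE 0.15, adjusted p = 0.00483), while with spike-in factors, where the all-gene median is −0.72, its fold change was −0.04. The batch B CPM of Eif5b ran from 281 to 667 (median 482) in GV oocytes and from 274 to 1079.8 (median 413) in MI oocytes, with the highest value in MI oocyte 6 (log2 fold change −0.03, SE 0.18, adjusted p = 0.978). Eif1b (ENSMUSG00000006941, chr9:120492232-120495330), a close relative of Eif1, had CPM of 147, 136, 232, 269, 205 and 192 in GV oocytes 1 to 6 and 239, 347, 371, 260.0, 187 and 321 in MII oocytes 1 to 6. MII oocytes 1, 4 and 5 lay among the GV oocytes and MII oocytes 2, 3 and 6 above all of them. The difference missed the threshold (log2 fold change 0.55, SE 0.19, adjusted p = 0.0539). It passed in 6 of 20 alternatives, among them those without GV oocyte 4 (adjusted p = 0.033) or MII oocyte 5 (0.0244), with DESeq2 (0.0387) and with HTSeq counts (0.0244). With spike-in factors, where the all-gene median is −0.72, its fold change was −0.16 (0.56, the highest of the alternatives). CPM in batch B ran from 40.0 to 73.6 (median 51.8) in GV oocytes and from 25.4 to 65.8 (median 38.6) in MI oocytes (log2 fold change −0.48, SE 0.15, adjusted p = 0.162).

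Eif1 (ENSMUSG00000035530, chr11:100319885-100322096), which opens the small subunit for scanning, had CPM of 198, 130.4, 301, 331, 228 and 231 in GV oocytes 1 to 6 and 269, 271, 320.2, 262, 282 and 289 in MII oocytes 1 to 6. GV oocytes spread widely around the narrow MII range (log2 fold change 0.25, SE 0.18, adjusted p = 0.341), and with spike-in factors (all-gene median −0.72) the fold change was −0.45. In batch B its CPM ran from 39.4 to 76.2 (median 53.3) in GV oocytes and from 24.7 to 66.9 (median 44.7) in MI oocytes (log2 fold change −0.27, SE 0.15, adjusted p = 0.518). Eif6 (ENSMUSG00000027613, chr2:155819832-155826925), which keeps the large subunit from joining early, had CPM of 138, 132, 274, 303, 145 and 223 in GV oocytes 1 to 6 and 123, 192, 186, 132, 131 and 198 in MII oocytes 1 to 6. GV oocytes 3, 4 and 6 were above all MII oocytes, and the other GV oocytes lay among them (log2 fold change −0.34, SE 0.22, adjusted p = 0.299). Batch B CPM of Eif6 ran from 95.1 to 162 (median 122) in GV oocytes and from 84.4 to 135 (median 103) in MI oocytes (log2 fold change −0.29, SE 0.10, adjusted p = 0.247). Eif1ax (−0.52), Eif5 (0.13) and Eif1ad (0.09) did not pass between GV and MII.

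Of eIF2 and the factors that deliver the initiator tRNA, 5 were tested, 2 fell and 0 rose, with a median of −0.24, beside 11.5% and 9.06% of all genes. With HTSeq counts 0 passed, beside 8.79% lower and 6.70% higher among all genes, and with spike-in factors all 5 were lower, beside 42.2%. Eif2s1 (ENSMUSG00000021116, chr12:78861819-78887010), the alpha subunit whose phosphorylation slows initiation, had CPM of 47.6, 79.7, 57.6, 73.8, 88.4 and 48.2 in GV oocytes 1 to 6 and 31.7, 51.1, 47.1, 43.0, 26.1 and 48.3 in MII oocytes 1 to 6. MII oocytes 2 and 6 lay above GV oocytes 1 and 6, the lowest of their stage. This weak fall (log2 fold change −0.68, SE 0.20, adjusted p = 0.0254) was lost without GV oocyte 2 (adjusted p = 0.0515), GV oocyte 4 (0.0526), GV oocyte 5 (0.0662) or MII oocyte 1 (0.0585), and with HTSeq counts the fold change was −0.12 (0.789, the highest of 20 alternatives, the lowest being 0.000244). Its CPM in batch B ran from 37.6 to 73.4 (median 52.9) in GV oocytes and from 35.7 to 95.1 (median 58.7) in MI oocytes (log2 fold change 0.13, SE 0.15, adjusted p = 0.822). Eif2d (ENSMUSG00000026427, chr1:131153181-131187658), a factor of tRNA delivery and recycling, had CPM of 37.2, 63.9, 43.8, 37.7, 43.4 and 40.7 in GV oocytes 1 to 6 and 21.9, 32.3, 43.1, 28.8, 23.8 and 28.8 in MII oocytes 1 to 6. MII oocyte 3 lay among the GV oocytes, of which oocyte 2 stood far above the others (log2 fold change −0.58, SE 0.18, adjusted p = 0.035). Its call was lost in 8 of 12 fits that left out an oocyte, those without GV oocytes 2, 3 and 5 and MII oocytes 1, 2, 4, 5 and 6 (adjusted p up to 0.084). Over all 20 alternatives p ran from 0.00039 to 0.126. The batch B CPM of Eif2d ran from 21.003 to 44.1 (median 29.5) in GV oocytes and from 18.8 to 43.1 (median 28.8) in MI oocytes (log2 fold change −0.08, SE 0.16, adjusted p = 0.912). Eif2s2 (−0.24), Eif2a (−0.19) and Eif2s3x (0.04) did not pass.

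The eIF2 alpha kinases hold initiation down under stress, and 2 of the 3 tested rose from GV to MII, beside 9.06% of all genes, with a median of 0.54. With spike-in factors 1 of the 3 was lower, 0 higher and the median −0.18, beside 42.2%, 1.11% and −0.72 for all genes. Eif2ak4 (ENSMUSG00000005102, chr2:118388618-118475234), the kinase that senses uncharged tRNA, had CPM of 57.2, 49.4, 54.2, 40.3, 41.5 and 59.2 in GV oocytes 1 to 6 and 73.7, 78.6, 80.6, 99.2, 78.4 and 81.6 in MII oocytes 1 to 6. All MII oocytes were above all GV oocytes, MII oocyte 4 by the most (log2 fold change 0.70, SE 0.14, adjusted p = 0.00235). CPM in batch B ran from 27.3 to 93.7 (median 64.3) in GV oocytes and from 45.5 to 92.5 (median 54.4) in MI oocytes (log2 fold change −0.03, SE 0.15, adjusted p = 0.975). Eif2ak1 (ENSMUSG00000029613, chr5:143817788-143904251), the heme-regulated kinase, had CPM of 149, 213, 188, 166, 133 and 171 in GV oocytes 1 to 6 and 251, 230.2, 247, 255, 275 and 227 in MII oocytes 1 to 6. Here too the stages were apart, by the least between GV oocyte 2 and MII oocyte 6 (log2 fold change 0.54, SE 0.13, adjusted p = 0.00769). Without a filter on low counts the adjusted p was 0.0506, within a range over 20 alternatives from 0.000929 to 0.518. Batch B CPM of Eif2ak1 ran from 138 to 273 (median 198) in GV oocytes and from 134 to 321 (median 196) in MI oocytes (log2 fold change 0.16, SE 0.14, adjusted p = 0.739). With spike-in factors and their all-gene median of −0.72, the fold changes of Eif2ak4 and Eif2ak1 were −0.06 (adjusted p = 0.847) and −0.18 (0.518). Eif2ak3, the kinase of the endoplasmic reticulum, did not pass (−0.22). The 5 eIF2B genes had 0 lower and 0 higher by edgeR at MII relative to the library (2 at an unadjusted p under 0.05, and with DESeq2 or HTSeq counts Eif2b1 higher) and a median of −0.09, beside 11.5% and 9.06% of all genes. With spike-in factors 3 of the eIF2B genes were lower, 0 higher and the median −0.82, beside 42.2%, 1.11% and −0.72 for all genes.

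The eIF4F complex binds the cap, unwinds the leader and recruits the ribosome. The 12 genes grouped with it are its parts, its helpers and relatives by name such as Eif4a3. Of these, 1 fell and 1 rose at MII, with a median of 0.06, beside 11.5% and 9.06% of all genes. With HTSeq counts 0 were lower and 1 higher, beside 8.79% and 6.70% of all genes. With spike-in factors 7 were lower, 0 higher and the median −0.69, beside 42.2%, 1.11% and −0.72 for all genes. Eif4e1b (ENSMUSG00000074895, chr13:54783998-54788459), the oocyte form of the cap-binding protein, had CPM of 166, 124, 104, 108, 91.9 and 97.5 in GV oocytes 1 to 6 and 116, 116, 125, 103, 130.1 and 119 in MII oocytes 1 to 6. GV oocyte 1 was the highest of all, and the MII values lay inside the GV range. No difference was detected (log2 fold change 0.04, SE 0.15, adjusted p = 0.88), and with spike-in factors the fold change was −0.75 (adjusted p = 0.0275), close to the all-gene median of −0.72. In batch B its CPM ran from 52.2 to 86.9 (median 67.1) in GV oocytes and from 39.5 to 127 (median 70.6) in MI oocytes, with MI oocytes spread on both sides of the GV range (log2 fold change 0.01, SE 0.14, adjusted p = 0.992). Its per-length level was 247 ± 66.9 in batch A GV, 265 ± 21.7 in MII, 251 ± 62.9 in batch B GV and 271 ± 119.6 in MI.

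Eif4e (ENSMUSG00000028156, chr3:138526179-138559696), the general cap-binding protein, had CPM of 189, 242, 177, 220.0, 270.3 and 142 in GV oocytes 1 to 6 and 149.5, 176, 177, 135, 114 and 174 in MII oocytes 1 to 6. GV oocyte 6 lay among the MII oocytes, and the other GV oocytes were above all of them, oocyte 3 by very little. Its difference missed the threshold (log2 fold change −0.42, SE 0.16, adjusted p = 0.078), and passed without GV oocyte 6 (log2 fold change −0.51, adjusted p = 0.0329), with ribosomal RNA left out of the library size (−0.55, 0.0263) and with spike-in factors (−1.18, 0.000759), within a range over 20 alternatives up to 0.275. The batch B CPM of Eif4e ran from 76.3 to 146 (median 108) in GV oocytes and from 68.1 to 176 (median 107) in MI oocytes (log2 fold change −0.02, SE 0.14, adjusted p = 0.978). The ordering of Eif4e and Eif4e1b per length, 285 ± 74.1 and 247 ± 66.9 at GV and 185 ± 19.0 and 265 ± 21.7 at MII, differed between the stages, and the levels lay within 1 SD of each other at GV.

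Eif4g2 (ENSMUSG00000005610, chr7:111067750-111083030), a scaffold that serves cap-independent initiation, had CPM of 251, 247, 213, 248, 321 and 251 in GV oocytes 1 to 6 and 311, 357, 362, 369, 329 and 353 in MII oocytes 1 to 6. GV oocyte 5 was above MII oocyte 1, and all other GV oocytes were below all MII oocytes. Its rise relative to the library was small (log2 fold change 0.44, SE 0.12, adjusted p = 0.0161). The call was lost with ribosomal RNA left out of the library size (adjusted p = 0.0865), without a filter on low counts (0.126) and with spike-in factors (log2 fold change −0.31, adjusted p = 0.272, the highest of 20 alternatives, the lowest being 0.00279). Batch B CPM of Eif4g2 ran from 157 to 334 (median 282) in GV oocytes and from 206 to 390.4 (median 283) in MI oocytes, with GV oocyte 7 the lowest (log2 fold change 0.04, SE 0.12, adjusted p = 0.952). Eif4a1 (ENSMUSG00000059796, chr11:69666936-69672423), the helicase of the complex, had CPM of 171, 218, 186, 229.5, 223 and 159.8 in GV oocytes 1 to 6 and 224, 219, 198, 193, 230.3 and 191 in MII oocytes 1 to 6. All MII oocytes but oocyte 5 lay inside the GV range (log2 fold change 0.08, SE 0.13, adjusted p = 0.687). With spike-in factors its fold change was −0.63 (adjusted p = 0.0302), beside −0.72 for all genes. Its CPM in batch B ran from 194 to 392 (median 245) in GV oocytes and from 159 to 352 (median 211) in MI oocytes (log2 fold change −0.15, SE 0.13, adjusted p = 0.754).

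Eif4h (ENSMUSG00000040731, chr5:134619721-134639490), a stimulator of the helicase and named here after its values were seen, had CPM of 91.5, 62.5, 75.6, 46.8, 83.7 and 91.7 in GV oocytes 1 to 6 and 60.8, 45.8, 50.9, 45.4, 67.5 and 40.1 in MII oocytes 1 to 6. GV oocytes 2 and 4 lay inside the MII range (log2 fold change −0.54, SE 0.18, adjusted p = 0.0424). Its call was lost in 8 of 12 fits that left out an oocyte, those without GV oocytes 1, 3, 5 and 6 and MII oocytes 2, 3, 4 and 6 (adjusted p up to 0.092), and over all 20 alternatives p ran from 0.0012 to 0.141. The other genes of the group did not pass: Eif4e2 (−0.46), Eif4a3 (−0.15), Eif4b (−0.08), Eif4g1, the main scaffold (0.18), Eif4g3 (0.28), Eif4e3 (0.30) and Eif4a2 (0.30). Of the proteins that bind and block eIF4E, 3 were tested and 0 passed by edgeR relative to the library, with 0 at an unadjusted p under 0.05. With spike-in factors 1 was lower, beside 42.2% of all genes. Eif4enif1, which carries eIF4E into the nucleus, was by far the most abundant of these proteins per length (471 ± 62.3 at GV, fold change 0.05), against 3.09 ± 0.951 for Eif4ebp1 (0.76) and 4.79 ± 1.70 for Eif4ebp2 (−0.11). Eif4ebp1 had 7.04 CPM in MII oocyte 1 and 1.38 to 2.25 CPM in the other MII oocytes. With HTSeq counts its fold change was 0.10.

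**Figure D2:**
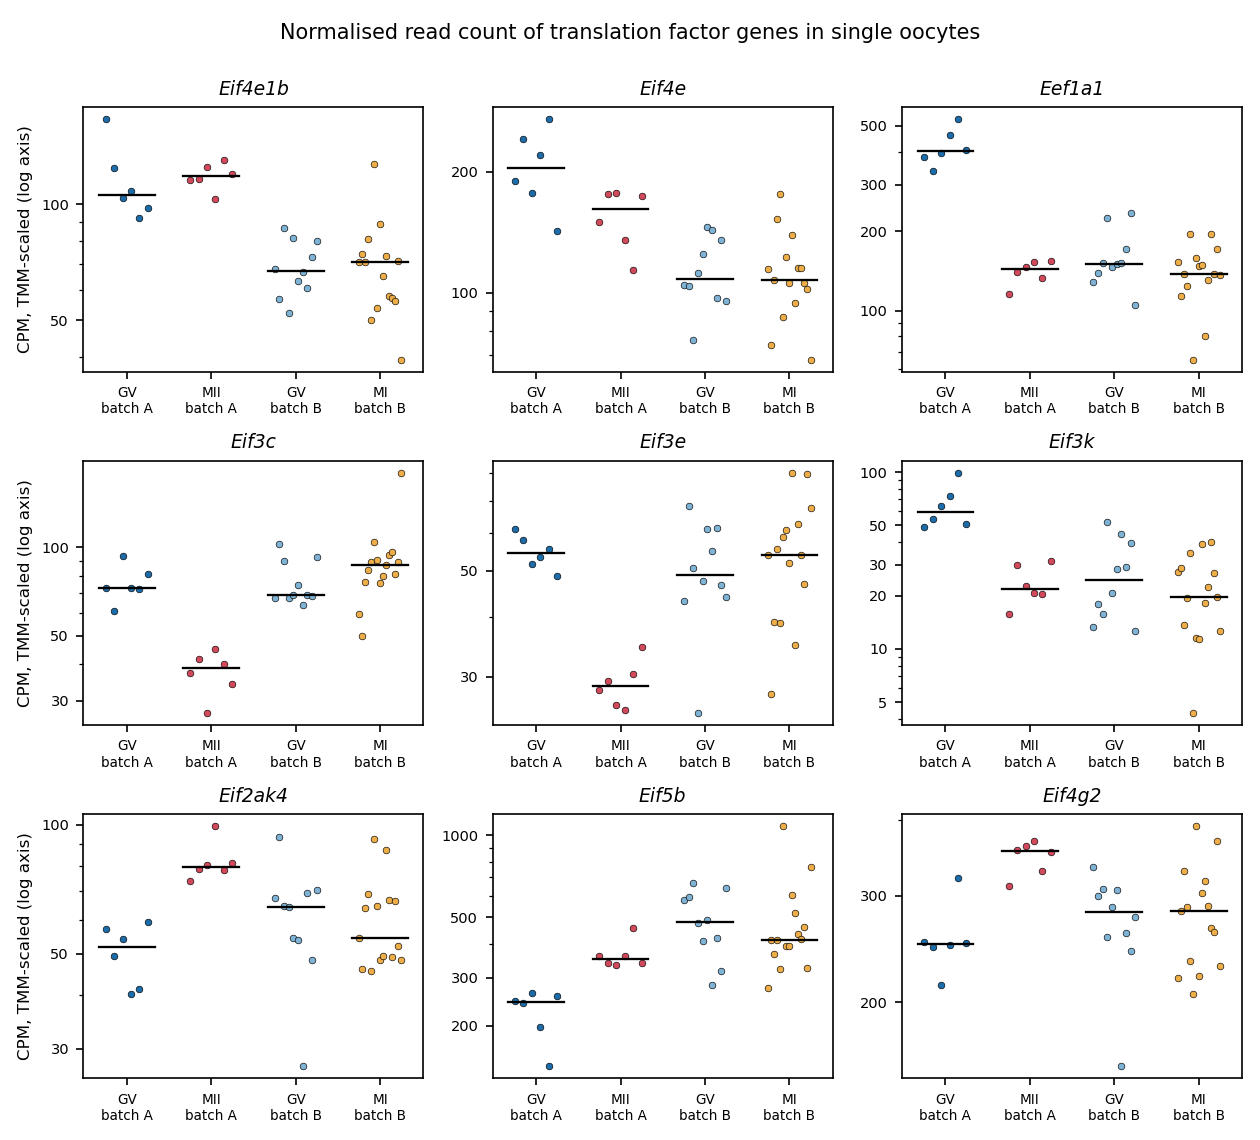
CPM on a log axis of 9 members in every oocyte of the 4 groups of stage and batch, with a line at the median of each group. Eef1a1, Eif3c, Eif3e and Eif3k lie lower in all 6 MII than in all 6 GV oocytes of batch A, Eif2ak4 and Eif5b lie higher (their sign turns with spike-in factors, where all genes shift by a median of −0.72), and Eif4e1b and Eif4e overlap.

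Between GV and MI in batch B, 62 members were tested and edgeR's quasi-likelihood test called 0 lower and 0 higher, beside 0.0483% lower and 0.0966% higher among all 12419 genes. No setting tried called a member. The share of all genes that passed as higher was 0.589% with DESeq2, 0.557% with batch as a covariate, 0.667% without MI oocyte 9, 1.04% without MI oocytes 4, 8, 9 and 15, and 0% with HTSeq counts or without MI oocyte 7. DESeq2 took its share over 32444 genes, and the fit with the covariate over 15083. The share lower was at most 0.431%, with batch as a covariate. At an unadjusted p under 0.05 there were 10 members with edgeR, 12 with DESeq2 and 6 with HTSeq counts, and over all genes edgeR had 1371 of 12419. The median sum of granulosa markers was 21.6 CPM in GV and 16.2 in MI. The median log2 fold change was −0.07 over the members and 0.02 over all genes, with 37 members below 0 and 25 above, and 47.8% of all genes below 0. By group the medians were −0.19 for the start-site factors (8 of 8 below 0), −0.08 for eIF2, 0.07 for eIF2B, −0.03 for the eIF2 alpha kinases and −0.11 for eIF3. They were 0.02 for eIF4F, 0.07 for the proteins that bind eIF4E, 0.09 for eIF5A, −0.32 for elongation factor 1 and −0.04 for eEF2 and the enzymes. The 10 members with an unadjusted p under 0.05, a set picked after the values were seen, were Eif1b (−0.48), Eef1g (−0.41), Eif5a (−0.39), Eef1d (−0.36), Eif2b1 (−0.36), Eif3g (−0.29), Eif6 (−0.29), Eif4b (0.34), Eif2b5 (0.74) and Eef1akmt3 (1.501), the last of which could not be tested with HTSeq counts. None of these 10 passed after adjustment over all genes. There were too few spike-in counts in batch B (0 to 32 per oocyte) to set these changes against added RNA.

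Whether a member changed differently by MII than by MI was tested as the change from GV to MII in batch A minus the change from GV to MI in batch B, over all 37 oocytes. Of 66 members tested, 3 had a lower and 4 a higher change at MII, beside 2.36% and 3.1% of 15083 genes, and 16 had an unadjusted p under 0.05, beside 2671 of those genes. The median difference was −0.02 over the members, 0.04 over all genes and −0.47 over eIF3. Eef1a1 differed by −1.30 (SE 0.24, adjusted p = 0.000579), Eif3c by −1.15 (SE 0.24, 0.00221) and Eif3e by −0.95 (SE 0.25, 0.0175). For each of these the fall was seen by MII and not by MI. Eif1b differed by 1.103 (SE 0.25, adjusted p = 0.00517), with a fold change of 0.55 in batch A and −0.48 in batch B, neither of which passed alone. Eif4e1b (0.10, adjusted p = 0.897) and Eif4e (−0.33, 0.512) showed no detectable difference.

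Eif2b1 and Eif5a passed this test without passing in either batch and are named after their values were seen. Eif2b1 (ENSMUSG00000029388, chr5:124570213-124579131), the alpha subunit of eIF2B, had CPM of 165, 252, 266, 397, 337 and 231 in GV oocytes 1 to 6 and 312, 493, 582, 382, 294 and 434 in MII oocytes 1 to 6. MII oocytes 2, 3 and 6 lay above all GV oocytes, and the rest overlapped (log2 fold change 0.60, SE 0.21, adjusted p = 0.0505). CPM in batch B ran from 101 to 227 (median 175) in GV oocytes and from 58.5 to 195 (median 132) in MI oocytes, with MI lying on the lower side (−0.36). The difference between the changes was 1.04 (SE 0.28, adjusted p = 0.0183), and was lost with HTSeq counts (0.0681, the highest of 4 alternatives, the lowest being 0.0102). Eif5a (ENSMUSG00000078812, chr11:69916714-69921958), the hypusine-bearing factor that helps ribosomes through stalls, had CPM of 93.5, 90.8, 202, 219, 131 and 181 in GV oocytes 1 to 6 and 203, 209, 260.4, 217, 194 and 227 in MII oocytes 1 to 6. GV oocytes 1, 2, 5 and 6 were below all MII oocytes, and MII oocytes 3 and 6 above all GV oocytes (log2 fold change 0.51, SE 0.21, adjusted p = 0.0847). In batch B its CPM ran from 27.8 to 104 (median 62.6) in GV oocytes and from 26.2 to 81.6 (median 46.2) in MI oocytes (−0.39). The difference was 0.97 (SE 0.30, adjusted p = 0.0475). It was lost without MII oocyte 1 (0.0567) and with HTSeq counts (0.0973), the lowest of 4 alternatives being 0.0374. With spike-in factors (all-gene median −0.72) the batch A fold changes of Eif2b1 and Eif5a were −0.09 and −0.16. The difference for Eif2ak4, 0.80 (SE 0.24, adjusted p = 0.0439), was likewise lost without MII oocyte 1 (0.0509), without a filter on low counts (0.1) and with HTSeq counts (0.139), and was 0.0235 with DESeq2. Without MII oocyte 1 the higher calls numbered 2, beside 1.82% of all genes.

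At the isoform level, 154 transcripts of 61 member genes were tested between GV and MII in batch A. Of these 15 were lower and 5 higher at MII, beside 5.81% lower and 3.49% higher among all 22461 transcripts, and 10 lower and 2 higher had a fold change over 2, beside 4.23% and 1.35% of all transcripts. The called transcripts belonged to 16 genes, and the median log2 fold change was 0.00 over member transcripts and 0.02 over all. Most calls were the main isoforms of genes already described, such as Eef1a1-201 (log2 fold change −1.60, SE 0.13, adjusted p = 4.67e-05), Eif3e-201 (log2 fold change −0.96, SE 0.12, adjusted p = 0.000429) and Eif3c-201 (log2 fold change −1.06, SE 0.15, adjusted p = 0.000844). Eif5b-201 (log2 fold change 0.66, SE 0.13, adjusted p = 0.00832) and Eif2ak1-201 (log2 fold change 0.53, SE 0.12, adjusted p = 0.0161) rose relative to the library. Without a filter on low counts Eif2ak1-201 was at 0.136, the highest of 15 alternatives, the lowest being 0.00642. Spike-in scaling was not applied to transcripts.

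Eef1d was the only gene with isoforms that passed in opposite directions. Eef1d-207 (chr15:75895488-75909297), with 257 codons and a 3′-UTR of 65 bases, had CPM of 48.3, 24.1, 62.9, 55.8, 35.0 and 60.2 in GV oocytes 1 to 6 and 16.6, 12.0, 10.540, 8.48, 15.0 and 7.49 in MII oocytes 1 to 6. Every MII oocyte was below every GV oocyte (log2 fold change −2.03, SE 0.27, adjusted p = 0.000676). Eef1d-205 (chr15:75894800-75909334), with the same number of codons and a 3′-UTR of 753 bases, had CPM of 4.59, 7.81, 4.11, 4.33, 2.89 and 2.78 in GV oocytes and 21.2, 27.8, 9.27, 22.0, 20.3 and 24.0 in MII oocytes. Here every MII oocyte was above every GV oocyte (log2 fold change 2.23, SE 0.32, adjusted p = 0.000898). The share of the gene's transcript counts was 36.7% ± 7.23 at GV and 15.3% ± 4.63 at MII for Eef1d-207 and 3.70% ± 2.18 at GV and 27.4% ± 8.65 at MII for Eef1d-205 (SD, n = 6 each).

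Eef2k and Eif4e2 had a called transcript without a call for the gene. Eef2k-201 (chr7:120842831-120907450), with 724 codons and a 3′-UTR of 4059 bases, had CPM of 5.58, 2.91, 4.73, 7.88, 3.45 and 6.12 in GV oocytes and 23.2, 19.9, 14.3, 19.3, 26.1 and 17.2 in MII oocytes. The stages did not overlap (log2 fold change 1.97, SE 0.27, adjusted p = 0.000705), and its share of the gene was 3.80% ± 2.63 at GV and 12.1% ± 4.21 at MII. Eef2k-204 (chr7:120843600-120904001), also of 724 codons but with a 3′-UTR of 610 bases, held 72.2% ± 6.24 at GV and 62.3% ± 3.16 at MII and did not pass (0.07, adjusted p = 0.945). Eif4e2-204 (chr1:87214286-87228064), an isoform of 240 codons with a 3′-UTR of 191 bases, had CPM of 10.8, 9.22, 12.6, 13.9, 11.1 and 12.4 in GV oocytes and 4.92, 5.82, 6.43, 5.89, 5.42 and 6.85 in MII oocytes. No MII oocyte reached the GV range (log2 fold change −0.98, SE 0.20, adjusted p = 0.0078), though without a filter on low counts the adjusted p was 0.138, the highest of 15 alternatives, the lowest being 0.000156. Its share was 69.1% ± 6.41 at GV and 49.3% ± 7.85 at MII, while Eif4e2-206 (chr1:87213914-87228856), with 245 codons and a 3′-UTR of 983 bases, held 13.4% ± 3.56 at GV and 34.7% ± 7.68 at MII without passing (0.92, adjusted p = 0.148).

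Eif4h-201 (chr5:134619877-134639347), an isoform of 228 codons, fell (log2 fold change −2.96, SE 0.73, adjusted p = 0.0225), and its share of the gene was 30.0% ± 11.7 at GV and 6.30% ± 4.85 at MII. That call was lost without GV oocyte 5 (adjusted p = 0.0533) or MII oocyte 4 (0.0537), over a range of 15 alternatives from 0.00168 to 0.0558. The longer coding form Eif4h-205, of 248 codons, held 69.0% ± 11.3 at GV and 93.0% ± 4.86 at MII and did not pass (−0.08). The transcripts Eef2k-204, Eif4e2-204, Eif4e2-206, Eif4h-201 and Eif4h-205 are named after their values were seen. Eif4e1b was split between Eif4e1b-206 (47.5% ± 7.55 at GV and 42.4% ± 1.27 at MII) and Eif4e1b-201 (42.6% ± 7.44 at GV and 44.5% ± 1.102 at MII), each of 244 codons, and neither passed (−0.12 and 0.06). Isoform counts are estimates from short reads, and the error of that estimate is not part of these tests.

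**Figure D3:**
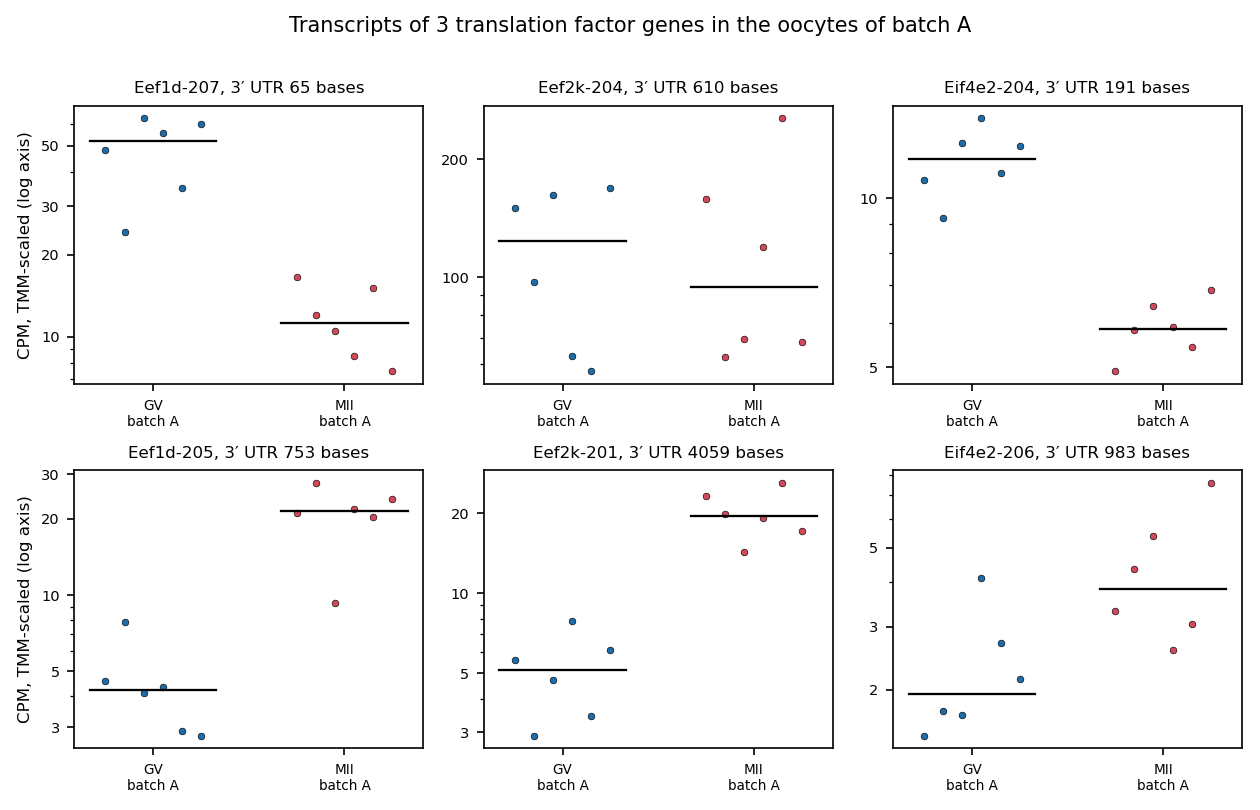
CPM of 6 transcripts of Eef1d, Eef2k and Eif4e2 in each of the 6 GV and 6 MII oocytes of batch A, with a line at the median. Eef1d-207 and Eif4e2-204 lie lower and Eef1d-205 and Eef2k-201 higher in all MII than in all GV oocytes, without spike-in scaling, which shifts all genes by a median of −0.72.

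Features of the main transcript were set beside the change from GV to MII. Across members, longer transcripts had higher fold changes (Spearman 0.33 over 61 members), and the same value, 0.33, was found across 11166 protein-coding genes; genes are not independent replicates. The main transcripts of lower members had a median length of 1829 bases (774 to 3405) and those of higher members 4768.5 (3548 to 7797), against 1648.5 and 3690 for all lower and higher genes. A cytoplasmic polyadenylation element, taken as TTTTAT or TTTTAAT in the last 100 bases, was present in 9 of 61 tested members (14.8%) and in 19.5% of those 11166 genes. Genes with the element had a median fold change of 0.19 and those without −0.01, while the medians for members were −0.30 and −0.10. Among called members with an element, 3 were lower and 1 was higher, while of the 2182 genes with one 132 were lower and 313 higher. The poly(A) signal AATAAA or ATTAAA was present in 48 of 61 members (78.7%) and in 80.4% of all genes. Neither Eif4e1b nor Eif4e had the polyadenylation element in its main transcript. The sites of the called members are shown on GRCm38, transcript strand 5′ to 3′, with the element in capitals, because these members changed and hold a motif read during maturation. All 4 elements lie in the 3′-UTR, and the windows shown, with the distance from the element to the transcript end, are chr9:78478510-78478532 (minus strand, 69 bases) for Eef1a1, chr2:104999705-104999726 (minus, 57 bases) for Eif3m, chr1:131173372-131173393 (plus, 93 bases) for Eif2d and chr7:111071960-111071981 (minus, 36 bases) for Eif4g2. Eif4g2 was the higher member, and turned below 0 with spike-in factors (all-gene median −0.72).
Eef1a1: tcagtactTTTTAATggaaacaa
Eif3m: acctgaatTTTTATgaaaatga
Eif2d: cagactcaTTTTATgcagtgga
Eif4g2: tgccctgaTTTTATatacttgt

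Mouse TOP mRNAs start with C and a run of pyrimidines. With a C followed by at least 4 pyrimidines as the annotated start, 2 of 61 tested members (3.28%) and 2.38% of all genes had such a start, and of the 9 members known as TOP mRNAs, Eif3f alone did. Annotated starts may differ from those used in oocytes, so the absence of a match says only that these letters are not at the annotated first base. The 2 starts are at chr12:78861819-78861838 (plus strand) for Eif2s1 and chr7:108934417-108934436 (plus strand) for Eif3f, shown with the pyrimidine run in capitals because TOP members were set apart above.
Eif2s1: CTCTTggttgactaaaactt
Eif3f: CTCTTTCTCggcaagatggc

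Other genes of the pathway were taken from lists of 69 genes. Of the 65 tested between GV and MII in batch A, 6 were lower and 5 higher, with a median of −0.03, beside 11.5% and 9.06% of all genes. With HTSeq counts 4 were lower and 2 higher, with a median of 0.11, beside 8.79% and 6.70%. With spike-in factors 32 were lower and 0 higher, with a median of −0.72, beside 42.2%, 1.11% and −0.72 for all genes. With HTSeq counts the lower and higher pathway genes by list were 1 and 0 (hypusine and diphthamide), 0 and 1 (mTOR and MNK), 0 and 0 (integrated stress response), 2 and 0 (other initiation factors), 1 and 0 (synthetases) and 0 and 1 (mitochondrial). In batch B 0 of 66 passed by edgeR, with 5 at an unadjusted p under 0.05. Of 8 enzymes of hypusine and diphthamide synthesis, which modify eIF5A and eEF2, 2 fell (median −0.50). Means of pathway genes are given with the SD over the 6 oocytes of a stage. Dohh, the hydroxylase that finishes hypusine, had a mean CPM of 3.67 ± 1.51 at GV and 0.706 ± 0.402 at MII, with no overlap (log2 fold change −2.37, SE 0.44, adjusted p = 0.00176). Dhps, which starts hypusine synthesis, had a mean CPM of 5.69 ± 1.48 at GV and 2.15 ± 0.99 at MII (log2 fold change −1.40, SE 0.33, adjusted p = 0.00819). Both are low genes, and with batch as a covariate neither passed (0.113 and 0.461, each the highest of 20 alternatives, the lowest being 9.13e-06 and 0.000332); with HTSeq counts Dohh was at 0.0601. Dph3, of diphthamide synthesis, had a fold change of 0.30.

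Of 11 genes of mTOR and MNK signalling, 0 fell and 2 rose (median 0.10), beside 11.5% and 9.06% of all genes. With spike-in factors 2 were lower and 0 higher, beside 42.2% and 1.11%. Rheb, the GTPase that activates mTOR, had a mean CPM of 68.5 ± 7.58 at GV and 98.6 ± 14.8 at MII, with no overlap (log2 fold change 0.52, SE 0.13, adjusted p = 0.0117). Its change at MII exceeded that at MI by 0.73 (adjusted p = 0.046), which was lost without MII oocyte 1 (0.0528), with HTSeq counts (0.0954) and without a filter on low counts (0.152), and was 0.0232 with DESeq2. Mknk1, which phosphorylates eIF4E, had a mean CPM of 78.3 ± 17.6 at GV and 108 ± 12.0 at MII (log2 fold change 0.46, SE 0.15, adjusted p = 0.0428), a call lost in 9 of 12 fits that left out an oocyte, those without GV oocytes 1, 2, 3 and 5 and MII oocytes 2, 3, 4, 5 and 6 (adjusted p up to 0.0871, within 0.0271 to 0.383 over 20 alternatives). Rps6kb1, the S6 kinase, did not pass (0.29). With spike-in factors, where all genes shift by a median of −0.72, Rheb and Mknk1 had fold changes of −0.21 and −0.24.

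Of 5 genes of the integrated stress response, 1 fell and 0 rose (median 0.22), beside 11.5% and 9.06% of all genes. Atf4, the transcription factor made when eIF2 is phosphorylated, had a mean CPM of 98.6 ± 21.7 at GV and 65.2 ± 10.4 at MII (log2 fold change −0.60, SE 0.17, adjusted p = 0.0222), which was lost without MII oocyte 4 (adjusted p = 0.0516) and with HTSeq counts (0.127), over a range of 20 alternatives from 0.000546 to 0.198. Ppp1r15a (0.56), which helps to dephosphorylate eIF2, and Impact (−1.04), an inhibitor of Eif2ak4, did not pass. Of 9 other initiation factors, 1 fell and 2 rose (median 0.14), beside 11.5% and 9.06% of all genes. Paip2, which blocks the poly(A)-binding protein, had a mean CPM of 271 ± 56.2 at GV and 169 ± 45.4 at MII (log2 fold change −0.68, SE 0.18, adjusted p = 0.0166) and passed under all 20 alternatives. Its relative Paip2b had 377 ± 69.3 at GV and 519 ± 83.2 at MII (log2 fold change 0.46, SE 0.15, adjusted p = 0.039) and the helicase Ddx3x 759.9 ± 61.2 at GV and 953 ± 40.2 at MII, with no overlap (log2 fold change 0.33, SE 0.11, adjusted p = 0.0374). The rise of Paip2b was lost without GV oocytes 4 or 5 or MII oocytes 1, 2, 4 or 5 (adjusted p up to 0.0851, within 0.0259 to 0.356 over 20 alternatives). That of Ddx3x was lost without GV oocytes 3, 4, 5 or 6 or MII oocytes 1, 2, 3, 4 or 6 (adjusted p up to 0.0811, within 0.0088 to 0.275), and with spike-in factors (all-gene median −0.72) the fold changes were −0.28 and −0.43.

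Among 19 cytosolic aminoacyl-tRNA synthetases 2 fell and 0 rose (median −0.10), beside 11.5% and 9.06% of all genes. With spike-in factors 14 were lower, beside 42.2% of all genes. The 2 that fell were Sars, with a mean CPM of 52.6 ± 13.0 at GV and 34.2 ± 2.03 at MII (log2 fold change −0.62, SE 0.16, adjusted p = 0.0139), and Rars, with 142 ± 30.5 at GV and 99.0 ± 14.3 at MII and no overlap (log2 fold change −0.52, SE 0.15, adjusted p = 0.0248). Sars passed under all 20 alternatives, while Rars was lost without GV oocyte 4 or MII oocytes 1, 4 or 5 (adjusted p up to 0.0615) and ranged from 0.000222 to 0.0918 over 20 alternatives. Qars did not pass (−0.37). Of 9 mitochondrial translation factors 0 fell and 1 rose (median 0.01), beside 11.5% and 9.06% of all genes. This was Gfm1, an elongation factor of mitochondria, with a mean CPM of 44.3 ± 6.23 at GV and 61.6 ± 5.70 at MII and no overlap (log2 fold change 0.47, SE 0.13, adjusted p = 0.0195), and with spike-in factors (all-gene median −0.72) its fold change was −0.24. Tsfm (0.45) and Tufm (−0.39) did not pass. Of the 4 termination and recycling factors 0 passed by edgeR relative to the library, with 0 at an unadjusted p under 0.05 and a median of −0.19. They were Etf1 (−0.26), Gspt2 (−0.20), Abce1 (−0.17) and Gspt1 (0.11, and −0.63 with spike-in factors). With spike-in factors all 4 were lower and their median was −0.96, beside 42.2% of all genes and −0.72.

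For some members the counts themselves are uncertain, as HTSeq and RSEM counts stood in an unusual ratio. Some of these members have close copies or overlap other genes, but the cause of the ratios was not tested. Among genes averaging 100 counts or more, HTSeq counts were typically 2.00 times the RSEM counts in batch A GV oocytes, but the ratio was 0.117 for Eif3j2, a copy of Eif3j1 (1.74), and 0.384 for Eif2s3x, whose copy is Eif2s3y. It was 0.914 for Eef1akmt4 and 0 for Eif4ebp3, each of which overlaps another annotated gene. Eef1akmt3, with a mean of 1.72 RSEM counts in these oocytes, also had a ratio of 0. For Eif3d (1.27), Eef1g (1.47), Eif4a1 (1.52) and Eef1a1 (1.59), the ratio was also below the typical value. Eef1a1 nonetheless passed with HTSeq counts (adjusted p = 3.80e-06), while Eif3d (0.112) and Eef1g (0.0843) did not. The libraries do not keep the strand, so reads from a member and from an antisense transcript cannot be told apart.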

How the data were processed

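RNA of 37 single oocytes had been read by Smart-seq2. As the authors deposited them, HTSeq 0.12.4 counts per gene came from STAR 2.7.6a alignments to mm10, and expected counts per gene and transcript came from a separate RSEM 1.3.1 run with its own alignment. Reads had been trimmed with Trim Galore 0.6.4. Gene types, positions and sequences were taken from GENCODE M21, while release VM20 lay behind the counts; 54723 of 54752 gene and 138789 of 138835 transcript identifiers matched. Rounded RSEM expected counts without spike-ins were filtered by stage with filterByExpr, scaled by TMM and compared in edgeR 4.0.16 under R 4.3.3 with the quasi-likelihood test and Benjamini-Hochberg adjustment over all genes, passing at 0.05. Each oocyte was 1 replicate, and batches were fitted apart except for the difference between changes. Named members were the most significant of the list, the most abundant, and the cap-binding forms; others are said to have been named after their values were seen. Members and lists were chosen with earlier results of these data known. Alternatives were DESeq2 1.42.0, HTSeq counts, RLE factors, no filter, a batch covariate, blocking on replicate number, spike-in factors, a library size without ribosomal RNA and leaving out single oocytes. The scripts were tested on simulated data.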

Additional observations from a re-analysis of the deposited data

Results flagged for a closer look

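A screen for stray oocytes covered the GV and MII groups, and the MI oocytes were not screened. About 1 in 20 groups of values would be expected to hold a stray oocyte by chance. Among 98 groups of values of named genes and transcripts, 8 held a single oocyte far from the rest. In CPM, these were Eif3h in GV oocyte 4 of batch B (81.2, the nearest other GV oocyte at 33.9), Eif2d in GV oocyte 2 of batch A (63.9, nearest 43.8), Eif2ak4 in MII oocyte 4 (99.2, nearest 81.6) and Eif5b in MII oocyte 5 (458, nearest 362). Eif4g2 stood apart in GV oocyte 5 of batch A (321, nearest 251) and GV oocyte 7 of batch B (157, nearest 243). Of the transcripts, Eef1d-205 was high in GV oocyte 2 of batch A (7.81 CPM, nearest 4.59) and Eif5b-201 in MII oocyte 5 (405 CPM, nearest 325).

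For 8 named genes the log2 change from GV to MII in batch A differed from the change from GV to MI in batch B. The differences were −1.30 for Eef1a1, −1.15 for Eif3c, −0.95 for Eif3e, 1.103 for Eif1b, 1.04 for Eif2b1, 0.80 for Eif2ak4, 0.97 for Eif5a and 0.73 for Rheb. Stage, batch and route of maturation change together in this contrast and cannot be told apart.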

How the results depend on the processing

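The 18 members called between GV and MII (14 lower, 4 higher, beside 11.5% and 9.06% of all genes) became 15 lower and 7 higher with DESeq2 (4.83% and 4.67%), 14 and 6 with RLE factors (11.3% and 9.56%), 17 and 5 without a filter (4.18% and 3.80%), and 10 and 6 with HTSeq counts (8.79% and 6.70%). DESeq2 and the fit without a filter took these shares over 36863 genes. With batch as a covariate 11 were called (7 lower, 4 higher, beside 4.05% and 4.13%), and with a block for replicate number 12 (9 lower, 3 higher, beside 7.66% and 4.62%), although oocytes with the same number did not pair (correlations −0.327 to 0.341). Spike-in factors, under which the all-gene median was −0.72, gave 39 calls (39 lower, 0 higher, beside 42.2% and 1.11%), a library size without ribosomal RNA gave 20 lower and 3 higher (14.9% and 4.70%), and a fold change over 2 left 5 (5 lower, 0 higher, beside 6.32% and 2.15%). Leaving out single oocytes gave 14 to 22 calls, with 10 to 15 lower and 4 to 8 higher, beside 8.60% to 11.0% and 6.47% to 8.48% of all genes. Among the genes followed through all settings that passed on at least 1 of the 2 scales, fold changes above 0 turned negative with spike-in factors for Eif4e1b (−0.75), Eif2ak4 (−0.0600), Eif5b (−0.0413), Eif2ak1 (−0.18), Eif4g2 (−0.31), Eif4a1 (−0.63), Rheb (−0.21), Gfm1 (−0.24), Ddx3x (−0.43), Paip2b (−0.28), Mknk1 (−0.24) and Gspt1 (−0.63), beside the all-gene median of −0.72. Members Eef1b2 (−0.71), Eif2s3x (−0.72), Eif3a (−0.73), Eif4enif1 (−0.69) and Eif5 (−0.62) and pathway genes Abcf1 (−0.70), Mrrf (−0.68), Cars (−0.64), Farsb (−0.68) and Gars (−0.65) also turned and passed with spike-in factors. Among followed genes that passed on neither scale, the same sign change was seen for Eif1 (−0.45), Eif1b (−0.16), Eif2b1 (−0.09), Eif5a (−0.16), Ppp1r15a (−0.16), Tsfm (−0.23), Rps6kb1 (−0.47) and Dph3 (−0.42). Of 26 named members tested in batch A, 24 kept their side of the threshold with DESeq2, 19 with HTSeq counts, 19 with the covariate and 20 with the block. In batch B every setting called 0 members. The 7 members whose change differed between MII and MI became 4 with HTSeq counts (3 lower, 1 higher, beside 1.29% and 0.77% of all genes) and 5 without MII oocyte 1 (3 lower, 2 higher, beside 1.52% and 1.82%). The 20 transcripts called (15 lower, 5 higher, beside 5.81% and 3.49% of all transcripts) became 17 lower and 8 higher with DESeq2 (1.88% and 1.17%), 13 without a filter (8 lower, 5 higher, beside 1.03% and 0.547%), 7 with the block (5 lower, 2 higher, beside 1.81% and 0.979%) and 12 with a fold change over 2 (10 lower, 2 higher, beside 4.23% and 1.35%), and ran from 15 to 23 on leaving out single oocytes (3.86% to 5.51% of all transcripts lower and 2.10% to 3.40% higher). For transcripts, DESeq2 and the fit without a filter took their shares over 92765 transcripts. Apart from settings that use fewer oocytes or a stricter threshold, the cause of these differences between settings was not tested. With 6 oocytes per stage in batch A and no molecular identifiers, the precision of values for genes with few counts is limited.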
